A study of Homo sapiens with 12 samples.

Results

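The drug efflux transporters described here are 9 genes of the ATP-binding cassette (ABC) family, taken by symbol from the 19447 genes of the count table: ABCB1, ABCB4, ABCC1, ABCC2, ABCC3, ABCC4, ABCC5, ABCC10 and ABCG2. All 9 symbols were found. They were taken by name, with no threshold on a measured value, and the set was drawn up with earlier results of these data known. All 9 encode pumps that move substrates out of the cytoplasm, so uptake carriers are described separately, from a list of 26 genes, after them.

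Messenger RNA was sequenced from 12 libraries, 3 in each of 4 groups. K562 is a human cell line from chronic myeloid leukemia that carries the BCR-ABL fusion kinase, and its untreated libraries served as the parental control. K562/IM is the resistant subline that was derived from K562 by raising the dose of imatinib, the BCR-ABL inhibitor, in steps and was then maintained in 5 µM imatinib. K562+L and K562/IM+L are the same lines given 6 µM lycorine, an alkaloid of the Amaryllidaceae. All 4 groups share the BCR-ABL background, and K562/IM is a single resistant line. The time in lycorine before sequencing, and whether imatinib was in the medium at harvest, are not given in the sources used here. The labels do not say that replicates were separate cultures, so each p-value measures only the spread between these libraries.

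ABC transporters bind ATP at a pair of cytoplasmic domains and use it to carry substrates across a membrane. ABCB1 (P-glycoprotein, MDR1) and ABCG2 (BCRP) pump many lipophilic drugs and kinase inhibitors, imatinib among them, while the ABCC members (MRP proteins) mainly carry organic anions, glutathione conjugates and nucleotide analogues. In leukemia cells these pumps are studied because a drug that is pumped out reaches its target at a lower concentration.

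Among the 9, the largest changes in opposite directions between K562 and K562/IM were those of ABCB1 and ABCG2, and 250 bases before an annotated start of each are printed to set their letters side by side. The sequences are from RefSeq, build GRCh38.p14, written 5′ to 3′ on the minus strand, on which both genes are read. ABCB1 is shown at chr7:87600885-87601134 and ABCG2 at chr4:88158860-88159109. Capitals mark 5 motifs searched on both strands. They are the CCAAT box, the GC box with the letters GGGCGG, the TATA box spelled TATAAA, the AP-1 motif spelled TGANTCA, and the E box for which the letters CACGTG were used.
ABCB1: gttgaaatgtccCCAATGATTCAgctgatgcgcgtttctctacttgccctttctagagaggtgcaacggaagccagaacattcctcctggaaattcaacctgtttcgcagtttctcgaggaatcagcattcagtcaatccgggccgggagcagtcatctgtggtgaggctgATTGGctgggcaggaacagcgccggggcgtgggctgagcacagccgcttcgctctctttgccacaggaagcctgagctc
ABCG2: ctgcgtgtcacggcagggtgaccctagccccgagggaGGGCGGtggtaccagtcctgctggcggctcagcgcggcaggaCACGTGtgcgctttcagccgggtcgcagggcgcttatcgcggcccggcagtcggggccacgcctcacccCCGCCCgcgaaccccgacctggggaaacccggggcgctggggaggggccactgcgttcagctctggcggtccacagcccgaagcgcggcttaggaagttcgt

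The ABCB1 window held CCAAT 238 bases before the start, its inverse ATTGG at 79 bases and TGATTCA at 234 bases, and the first and the last of these share 1 base. It held no GC box and no TATA box. The ABCG2 window held GGGCGG at 213 bases, the inverse CCGCCC at 102 bases and CACGTG at 171 bases before the start. Among 35116 windows of this length, the CCAAT box was found in 32.0%, the GC box in 42.6%, the TATA box in 10.7%, the AP-1 motif in 6.57% and the E box in 6.34%. The GC content was 55.6% in the ABCB1 window and 72.4% in the ABCG2 window, against a median of 58% over all windows. These are matches of letters, with any base allowed at the N of TGANTCA, and binding was not measured. The second ABCB1 window, at chr7:87713296-87713545, had 39.2% GC and none of the 5 motifs. Of the 4 other ABCG2 windows, 3 held none of them either, at chr4:88158640-88158889 (73.6% GC), chr4:88159291-88159540 (43.6% GC) and chr4:88231627-88231876 (40% GC), and the other overlaps the printed one and held the same 3 matches.

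Total counts ran from 75093844 to 107344598 per library. Of the 23289 values between 1 and 25, 67.9% left a remainder of 0 or 1 on division by 4. This is a property of 52.0% of the integers from 1 to 25. That yardstick takes each integer as equally common, which low counts need not be. If 1 fragment is worth about 4 counts, the low values below are less precise than they look. The labels and the drawings of the study number the K562/IM+L group differently. These 3 libraries stood furthest from the K562/IM libraries (Spearman's rho 0.904 to 0.924 over 13995 genes, against 0.996 among the K562/IM libraries). Their rho was 0.931 to 0.943 with the K562 libraries and 0.911 to 0.933 with the K562+L libraries. The summed level of 12 erythroid markers was 33071 to 46524 CPM (counts scaled to the TMM library size) in the 3 K562/IM+L libraries. It was 2978 to 3226 in K562/IM, 4384 to 5035 in K562+L and 6411 to 8893 in K562. The 3 libraries are therefore called the libraries labelled K562/IM+L, or the labelled libraries, and every direction drawn from them rests on that label. The part of this difference in the results was not tested. The comparison of K562+L with K562 and that of K562/IM with K562 do not contain these libraries. Markers of other cell types, 17 genes, summed to 163 to 269 CPM over all libraries, and MS4A1 of B cells was at 0 in every group. In K562/IM 7 of the 10 tested were higher than in K562 and 1 was lower, beside 30.1% and 27.1% of all genes. CD3D stood at 22.0 against 2.15 CPM and COL1A2 at 17.1 against 0.0164 CPM, while CD3E stood at 0.0700 against 0.116 CPM and EPCAM fell from 128 to 46.3 CPM (adjusted p = 5.7e-06). Against K562/IM, 1 of the 11 tested was higher in the labelled libraries and 6 were lower, beside 33.2% and 33.6% of all genes. There CD3D stood at 0.344 CPM and COL1A2 at 0.0294 CPM, while EPCAM rose to 94.9 CPM. The part of these markers in the results was not tested. In bulk RNA, fewer cells with a transcript and less of it per cell cannot be told apart.

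K562/IM cells carried far more ABCB1 than K562 cells and far less ABCG2 and ABCB4. The question of this comparison was which transcripts differ between imatinib-resistant and parental cells. Of the 9 transporters, 2 were higher (ABCB1 and ABCC1) and 4 lower (ABCG2, ABCB4, ABCC3 and ABCC4) in K562/IM at an adjusted p under 0.05 from edgeR's quasi-likelihood test. Over all 13406 genes tested 30.1% were higher and 27.1% lower. An absolute log2 fold change over 1 was passed as well by 3 transporters (ABCB1, ABCG2 and ABCB4), and by 19.1% of all genes. The median log2 fold change of the 9 was -0.33, against 0.042 over all genes. Of the 12 erythroid markers 9 were lower in K562/IM and 1 was higher, HBE1, from 97.6 to 544 CPM. The part of these markers in the results was not tested.

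ABCB1 spans 87503633 to 87713323 of chromosome 7 (GRCh38), on the minus strand. The K562 libraries held 1.68, 1.86 and 1.72 CPM, and the K562/IM libraries 23.0, 21.9 and 25.8 CPM. The lowest K562/IM library was thus far above the highest K562 library. The rise was 13.4-fold (95% interval 11.1 to 16.1; log2 fold change 3.74, standard error (SE) 0.11, adjusted p = 5.1e-07).

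ABCG2, on chromosome 4 from 88090264 to 88231322, went the other way. It stood at 21.6, 22.3 and 21.6 CPM in K562 and at 1.51, 2.31 and 1.73 CPM in K562/IM. No library of either group came near the other group's range. The fall was 11.8-fold (log2 fold change -3.56, SE 0.17, adjusted p = 3.1e-06).

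ABCB4, the next gene to ABCB1 on the same strand (chromosome 7, 87401697 to 87480435), encodes a pump that moves phosphatidylcholine into bile in liver cells. The K562 libraries held 1.73, 1.60 and 1.58 CPM and the K562/IM libraries 0.263, 0.281 and 0.363 CPM, or 22 to 39 counts. The groups did not overlap, and the log2 fold change was -2.43 (SE 0.27, adjusted p = 1.9e-04). The ratio of ABCB1 to ABCB4 counts, which library size does not enter, was 0.972 to 1.16 in K562, 3.35 to 3.78 in K562+L, 71.1 to 87.1 in K562/IM and only 0.222 to 0.541 in the labelled libraries. The longest annotated transcripts of these genes share 119 words of 50 bases, 2.52% of those of ABCB1 and 2.82% of those of ABCB4. Reads from these stretches could have been assigned to either gene. In K562/IM, with 1917 to 2772 ABCB1 counts, such a share could be as large as the 22 to 39 ABCB4 counts. The ABCB4 level and the ratio there are uncertain for this reason, and the assignment of reads was not tested.

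ABCC1 (MRP1), which exports glutathione conjugates and unconjugated drugs together with glutathione, rose in K562/IM. It stood at 62.1, 53.7 and 54.3 CPM in K562 and at 109, 96.8 and 111 CPM in K562/IM, without overlap. The rise was 1.86-fold (log2 fold change 0.90, SE 0.091, adjusted p = 1.4e-04). ABCC3 (MRP3), an exporter of glucuronides and bile acids, was lower by a small step, with 2.87, 3.49 and 3.04 CPM in K562 against 1.86, 2.27 and 2.34 CPM in K562/IM (log2 fold change -0.54, SE 0.18, adjusted p = 0.0344). ABCC4 (MRP4), an exporter of cyclic nucleotides and nucleotide analogues, was lower by 1.26-fold (log2 fold change -0.33, SE 0.11, adjusted p = 0.0344), and all 3 K562/IM libraries, at 60.1 to 73.3 CPM, lay below the K562 range of 77.2 to 96.1 CPM.

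The calls for ABCC3 and ABCC4 did not hold in every fit that left out 1 library. Both were lost without K562 replicate 2, without K562/IM replicate 1 and without K562/IM replicate 3, and that for ABCC3 without K562/IM replicate 2 as well. The call for ABCC3 was also lost in the fit with a replicate block (adjusted p = 0.0607) and that for ABCC4 under upper-quartile scaling (adjusted p = 0.0580). Across the 6 fits 4 to 8 transporters were called, and the 8 without K562 replicate 1 included ABCC5 and ABCC10. ABCC5 (MRP5), which carries cyclic nucleotides too, had a ratio of K562/IM to K562 of 1.15 (95% interval 0.994 to 1.34, adjusted p = 0.0901). The fall in ABCC10 (MRP7), which can pump taxanes, was 1.12-fold, with an interval of the ratio of 0.777 to 1.02 (adjusted p = 0.132).

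**Figure D1:**
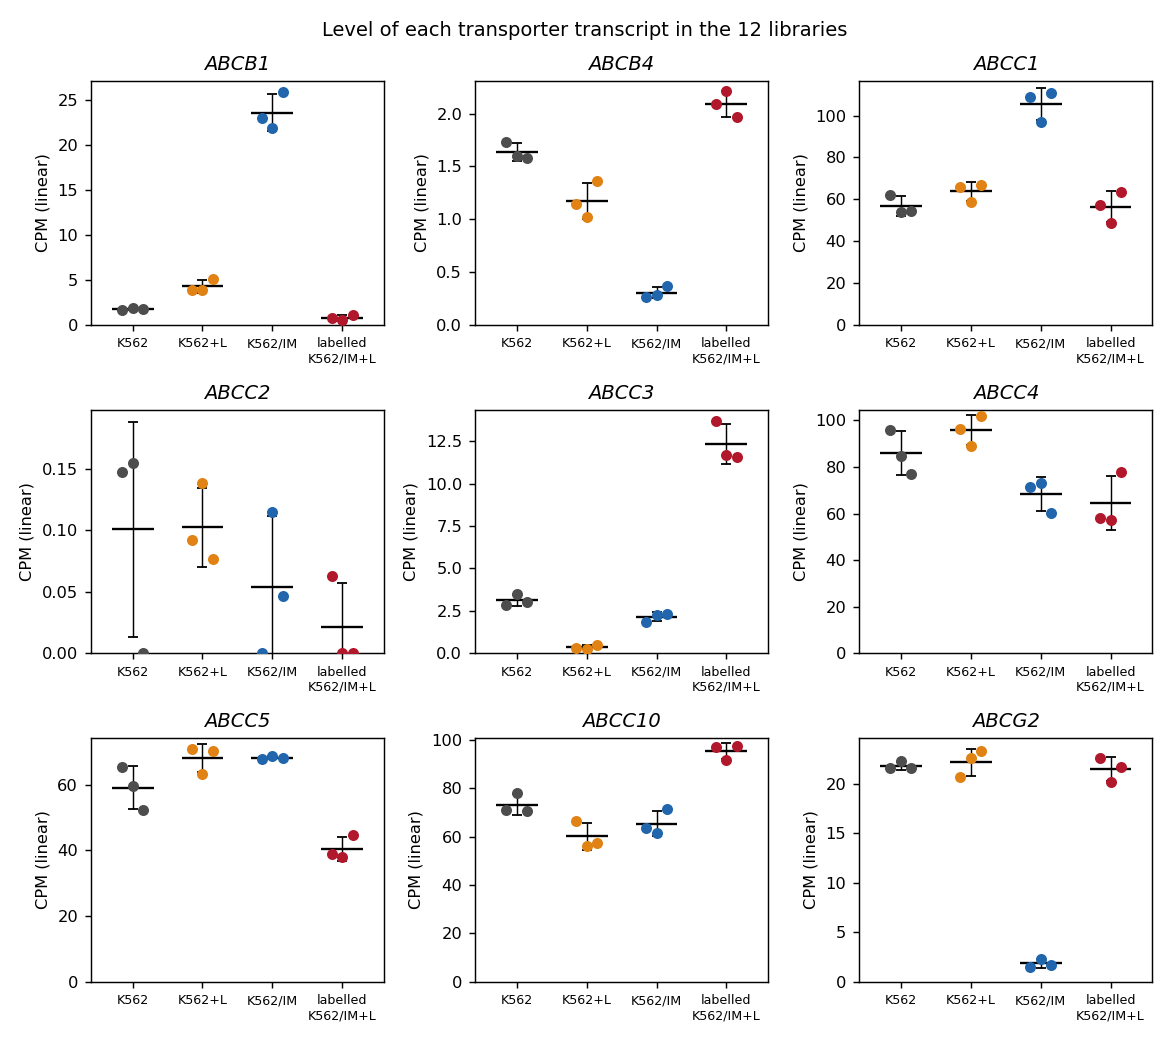
Level of each of the 9 transporters in CPM (linear axis from 0, scaled separately for each gene) in the 4 groups; points are the 3 libraries, the long bar is their mean and the whiskers the SD. ABCB1 is highest in K562/IM, at 21.9 to 25.8 CPM, where ABCG2 is lowest, at 1.51 to 2.31 CPM.

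Lycorine in the parental line moved 2 of the 9 transporters, and most of the genes tested were not called either. The comparison of K562+L with K562 asked what the alkaloid changes in imatinib-sensitive cells. ABCB1 was higher and ABCC3 lower, and both passed the fold threshold. Over all 12927 genes tested 18.2% were higher, 19.0% lower, and 6.39% passed the fold threshold as well. The median log2 fold change of the 9 transporters was 0.027, against -0.00012 over all genes. Of the 12 erythroid markers 1 was higher and 7 were lower in K562+L, and their part in the results was not tested.

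The K562+L libraries held ABCB1 at 3.83, 3.84 and 5.14 CPM, all above the highest K562 library at 1.86 CPM. The rise was 2.43-fold (95% interval 1.81 to 3.27; log2 fold change 1.28, SE 0.19, adjusted p = 0.00213). The level stayed far below the lowest K562/IM library, at 21.9 CPM. ABCC3, on chromosome 17 from 50634777 to 50692252, stood at 0.335, 0.254 and 0.469 CPM in K562+L, which is 22 to 49 counts, against 234 to 293 counts in K562. Its fall was 8.80-fold (log2 fold change -3.14, SE 0.28, adjusted p = 2.9e-04).

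ABCG2 held 20.7, 22.6 and 23.3 CPM in K562+L, across the K562 values. The ratio was 1.02 with a 95% interval of 0.884 to 1.17 (adjusted p = 0.838). For ABCC1, ABCC4 and ABCC5 the ratios were 1.13, 1.12 and 1.15, with upper limits of the intervals at 1.32, 1.32 and 1.37. ABCB4 stood at 1.14, 1.02 and 1.36 CPM, each below every K562 library, with a log2 fold change of -0.48 (SE 0.22) that missed the threshold (adjusted p = 0.120). ABCC10 had a log2 fold change of -0.29 (SE 0.099) and an adjusted p of 0.0519, just outside the threshold, which it passed in 7 of 14 alternative fits.

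The labelled libraries differed from K562/IM in most of the transporters, as in most of the genes tested. This comparison was designed to show the effect of lycorine in resistant cells. ABCG2, ABCB4, ABCC3 and ABCC10 were higher and ABCB1, ABCC1 and ABCC5 lower, which makes 4 higher and 3 lower among the 8 tested. Changes were common here, since 33.2% of all 13727 genes were higher and 33.6% lower, and 28.5% passed the fold threshold as well, as did 4 transporters. The median log2 fold change of the 8 was 0.25, against -0.0069 over all genes.

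ABCB1, at 21.9 to 25.8 CPM in K562/IM, fell to 0.706, 0.490 and 1.06 CPM in the labelled libraries. Those values rest on 56, 35 and 100 counts. The log2 fold change was -4.92 (SE 0.27, adjusted p = 4.9e-06), a 30.3-fold fall with an interval of the ratio of 0.0214 to 0.0510. The 3 labelled libraries also lay below every K562 library.

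ABCG2 stood at 22.6, 20.2 and 21.7 CPM in the labelled libraries, 11.8-fold above K562/IM (log2 fold change 3.56, SE 0.17, adjusted p = 2.9e-06). ABCB4 stood at 2.09, 2.21 and 1.97 CPM, above every library of the other 3 groups, and its rise over K562/IM was 6.96-fold (log2 fold change 2.80, SE 0.25, adjusted p = 5.3e-05). ABCC3 reached 13.7, 11.7 and 11.6 CPM, where no other library of the study passed 3.49 CPM. It was 5.81-fold above K562/IM (log2 fold change 2.54, SE 0.15, adjusted p = 6.3e-06).

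Among the abundant transporters the steps were smaller. ABCC1 fell to 57.2, 48.8 and 63.5 CPM (log2 fold change -0.88, SE 0.11, adjusted p = 3.5e-04). ABCC5 fell from 67.8 to 68.8 CPM in K562/IM to 38.8, 37.8 and 44.5 CPM (log2 fold change -0.73, SE 0.083, adjusted p = 1.7e-04), the lowest values of the 12 libraries. ABCC10 rose to 97.1, 91.6 and 97.4 CPM, its highest values of the 12 libraries (log2 fold change 0.57, SE 0.081, adjusted p = 5.6e-04). ABCC10 shares 79 exon bases with DLK2, which is read from the opposite strand, and the sources used here do not say whether the counting used strand. The ratio for ABCC4 was 0.764 to 1.21 (95% interval, adjusted p = 0.737), and the sign of its change turned in 2 of 14 alternative fits.

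**Figure D2:**
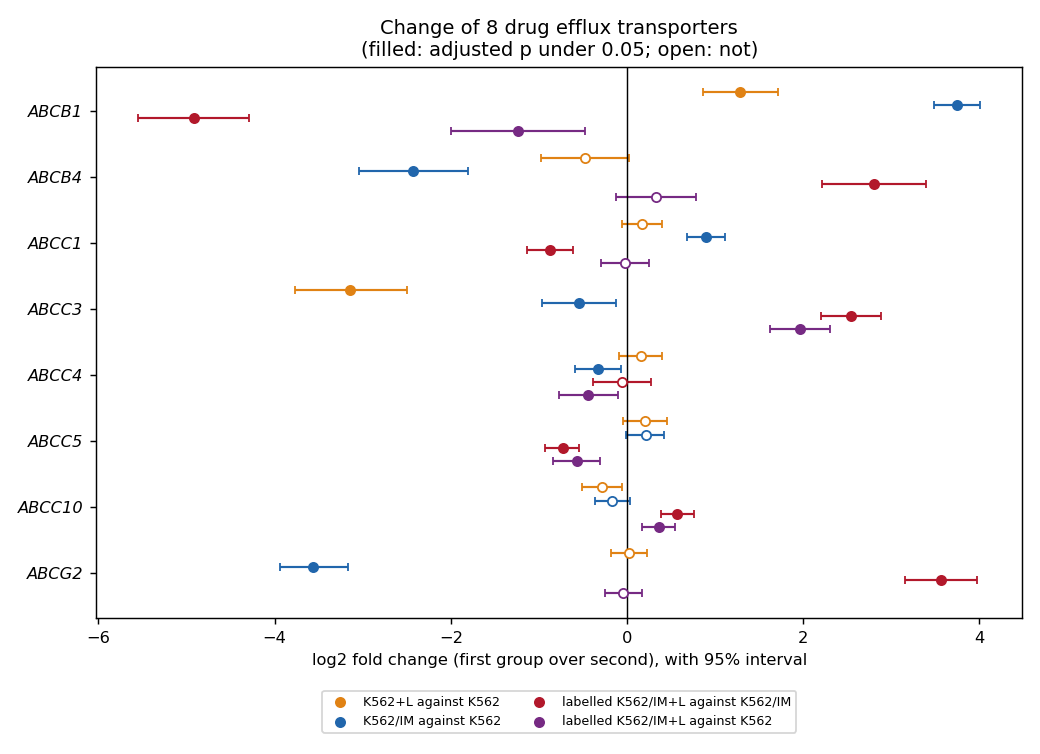
Log2 fold change (horizontal axis, first group over second) of 8 transporters in 4 comparisons, with 95% intervals from edgeR's quasi-likelihood fit; filled points passed an adjusted p of 0.05 and open points did not. ABCB1 lies at 3.74 for K562/IM against K562 and at -4.92 for the labelled K562/IM+L libraries against K562/IM, and ABCG2 at -3.56 and 3.56. ABCC2 is left out for its low counts.

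Set against K562, the labelled libraries were higher in ABCC3 and ABCC10 and lower in ABCB1, ABCC4 and ABCC5. That is 2 higher and 3 lower of the 8 tested, against 28.2% higher and 27.8% lower of all 13307 genes, and 2 transporters passed the fold threshold, as did 23.8% of all genes. The same K562 libraries serve as the control here, in K562+L against K562 and in K562/IM against K562, so these comparisons are not independent of each other. Upper-quartile scaling moved the median of all genes by 0.15 on the log2 scale in this comparison and the share of calls that were higher from 50.4% to 61.3%, so changes of this size depend on the scaling. The median log2 fold change of the 8 transporters was -0.035, against 0.02 over all genes.

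ABCC3 was 3.88-fold above K562 (95% interval 3.06 to 4.92; log2 fold change 1.96, SE 0.14, adjusted p = 4.6e-05). ABCB1 was 2.36-fold below K562, with a wide interval of the ratio of 0.250 to 0.719 (log2 fold change -1.24, SE 0.32, adjusted p = 0.0143). Without replicate 1 of the libraries labelled K562/IM+L its log2 fold change was -1.20 and the adjusted p was 0.0507. ABCG2, at 21.5 ± 1.21 CPM (SD, n = 3) against 21.8 ± 0.431 CPM (SD, n = 3), had a ratio with an interval of 0.839 to 1.12 (adjusted p = 0.714). For ABCC1 the interval of the ratio was 0.810 to 1.19 (adjusted p = 0.852) and for ABCB4 0.921 to 1.72 (adjusted p = 0.179). Under upper-quartile scaling the signs of the changes of ABCC1 and ABCG2 turned.

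ABCC10 was 1.28-fold higher (adjusted p = 0.00741) and ABCC5 1.49-fold lower (adjusted p = 0.00403) than in K562. ABCC4 was 1.36-fold lower (adjusted p = 0.0337), and its labelled libraries, at 58.3, 57.3 and 78.0 CPM, overlapped the K562 range. This call was lost in 6 of 14 alternatives, among them upper-quartile scaling (log2 fold change -0.29, adjusted p = 0.129) and the replicate block (adjusted p = 0.0920). Without replicate 1 of the labelled libraries, the calls in this comparison dropped from 5 transporters to 3, as those for ABCB1 and ABCC4 were lost.

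The lycorine contrasts of the lines differed for most transporters, as for most of the genes tested. An interaction term in a fit of the 12 libraries tested the difference, in which the contrast in K562 is subtracted from that in K562/IM. It was positive for 4 transporters (ABCC3, ABCG2, ABCB4 and ABCC10) and negative for 3 (ABCB1, ABCC1 and ABCC5) of the 9 tested, against 29.9% positive and 31.7% negative of all 13995 genes. ABCB1 had the most negative value, with -6.23 on the log2 scale (SE 0.33, adjusted p = 3.1e-08), as it rose in K562+L and fell in the labelled libraries. ABCC3 had the most positive, with 5.65 (SE 0.29, adjusted p = 2.7e-08), as it fell in the first and rose in the second. For ABCC4 the difference was -0.24 (SE 0.18, adjusted p = 0.277).

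ABCC2 (MRP2), the conjugate exporter of the bile canaliculus, was near the limit of detection. Its counts were 12, 13 and 0 in K562, 8, 12 and 8 in K562+L, 0, 11 and 5 in K562/IM and 5, 0 and 0 in the labelled libraries. A count of 0 was seen in 4 libraries. If each count is 1 fragment, it allows up to 3 counts, or 0.0279 to 0.0420 CPM, for counting error alone. ABCC2 could lie higher than that if 1 fragment is worth about 4 counts. It passed the low-count filter in K562+L against K562 (adjusted p = 0.997), in K562/IM against K562 (adjusted p = 0.573) and in the interaction (adjusted p = 0.583), and not in the comparisons with the labelled libraries, so no fold change is given.

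Levels of different transporters were compared per kb of merged exon length (CPM per kb), since longer transcripts collect more reads. In K562 the order from the top was ABCC4 at 9.96 ± 1.10, ABCC10 at 9.07 ± 0.512, ABCC1 at 7.48 ± 0.625, ABCC5 at 5.16 ± 0.578 and ABCG2 at 4.32 ± 0.0854 CPM per kb (SD, n = 3). Well below followed ABCC3 at 0.326, ABCB1 at 0.302, ABCB4 at 0.212 and ABCC2 at 0.0129 CPM per kb. The libraries of ABCC4 and ABCC10 overlapped, as did those of ABCC3 and ABCB1, and every other pair of neighbours in the order was apart. The order depends on the length used. With the longest transcript in place of merged exons, ABCC10 (14.4) stood above ABCC4 (13.9), ABCC5 (9.97) above ABCC1 (8.60) and ABCB4 (0.383) above ABCB1 (0.367 CPM per kb) in K562.

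By merged exon length, in K562+L ABCC4 led with 11.1 ± 0.770 CPM per kb, followed by ABCC1 and ABCC10, whose libraries overlapped, and ABCC3 dropped below ABCB4. By the longest transcript ABCC1, at 9.68 CPM per kb, stood below ABCC10 at 11.8 and ABCC5 at 11.5. In K562/IM ABCC1 led with 13.9 ± 1.02 CPM per kb, and ABCB1 ranked below ABCC5 at 4.06 ± 0.351, 11.1 times the level of ABCG2 at 0.367 ± 0.0821 CPM per kb. ABCC10 and ABCC4 overlapped there, at 8.09 ± 0.641 and 7.91 ± 0.828 CPM per kb. In the labelled libraries ABCC10 led with 11.8 ± 0.406 CPM per kb, ABCC4 and ABCC1 overlapped, and ABCB1 stood next to last at 0.130 ± 0.0499 CPM per kb. By the longest transcript ABCC5 stood above ABCC4 in K562/IM and above ABCG2 in the labelled libraries, and the leading gene of both groups was the same.

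The sum over the 9 transporters moved little while its makeup shifted. It was 36.8 ± 2.22 CPM per kb in K562, 38.3 ± 2.09 in K562+L, 40.6 ± 1.07 in K562/IM and 36.2 ± 3.0 in the labelled libraries (SD, n = 3). ABCB1 made up 0.822% of that sum in K562, 1.92% in K562+L, 9.98% in K562/IM and 0.352% in the labelled libraries. The share of ABCG2 was 11.8%, 11.5%, 0.907% and 11.8% in the same order. ABCC1 rose from 20.3% of the sum in K562 to 34.3% in K562/IM, and ABCC10 made up 32.7% in the labelled libraries after 19.9% in K562/IM.

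**Figure D3:**
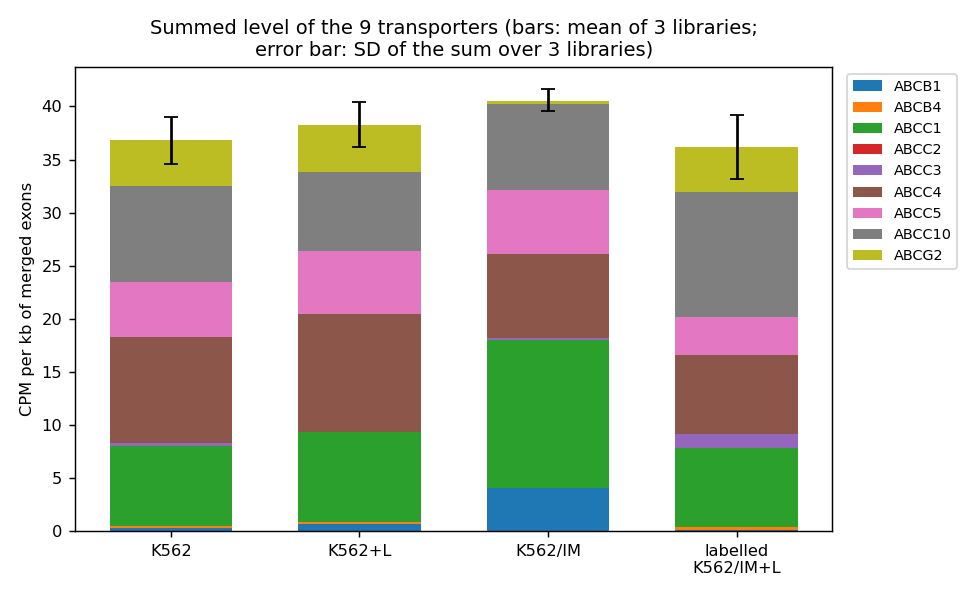
Summed level of the 9 transporters in CPM per kb of merged exons (linear axis) in each group; each coloured block is the mean of 1 gene over 3 libraries and the error bar is the SD of the sum. The sums lie between 36.2 and 40.6, and ABCB1 takes 9.98% in K562/IM against 0.822% in K562.

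The genes around ABCB1 on 7q21 were read as a list, to place the change of ABCB1 beside those of its neighbours. DNA copy number was not measured. The list held 14 genes, including ABCB1 and ABCB4, of which 12 were tested. In K562/IM against K562, 4 were higher and 3 lower, beside 30.1% and 27.1% of all genes. CROT, a peroxisomal carnitine acyltransferase whose gene lies on the far side of ABCB4, rose from 2.50 ± 0.266 to 10.5 ± 0.616 CPM (SD, n = 3; log2 fold change 2.07, SE 0.13, adjusted p = 1.3e-05). ADAM22, a synaptic adhesion protein, rose from 11.1 ± 2.48 to 38.3 ± 0.749 CPM (SD, n = 3; log2 fold change 1.79, SE 0.15, adjusted p = 5.4e-05). ABCB1 and the 3 other genes that rose, CROT, ADAM22 and KIAA1324L, were separated by genes that did not.

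ABCB4, between CROT and ABCB1, fell, and RUNDC3B, whose gene overlaps that of ABCB1 on the opposite strand without a shared exon base, had a log2 fold change of 0.12 (SE 0.38, adjusted p = 0.807). SLC25A40, next after RUNDC3B, had one of 0.029 (SE 0.12, adjusted p = 0.852), and DBF4, which activates a kinase of DNA replication, fell with -0.71 (adjusted p = 3.2e-04). In the labelled libraries, set against K562/IM, CROT and ADAM22 fell with log2 fold changes of -2.02 (adjusted p = 9.5e-05) and -2.13 (adjusted p = 6.8e-06). In K562+L against K562, ABCB1 alone of the 12 was higher and 5 were lower, beside 18.2% and 19.0% of all genes. CROT and ADAM22 had log2 fold changes of -0.33 (adjusted p = 0.243) and -0.079 (adjusted p = 0.767) there.

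The genes whose levels followed each transporter most closely were found by Pearson's r of log2(CPM + 1) over the 12 libraries. These points fall into 4 groups of 3, so the values describe likeness of group levels and carry no test. For ABCB1 they were COL6A5 (r = 0.994), LIMA1 (0.993), NES (0.992), GALNT1 (0.992) and SPATS2L (0.992). NES, which encodes the filament protein nestin, stood at 2.26 CPM in K562, 5.01 in K562+L, 19.9 in K562/IM and 1.84 in the labelled libraries. For ABCG2 they were CT55 (0.994), ZNF22 (0.994) and GABRG1 (0.990), and CT55 stood at 11.9 CPM in K562 against 0.146 CPM in K562/IM.

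For ABCB4 the closest were SLC6A19, RAB6B and TMEM144 (r = 0.988 to 0.993), for ABCC1 TEP1, CDCP1 and NBPF26 (0.985 to 0.991) and for ABCC3 SLC66A3, DCAF6 and SELENBP1 (0.986 to 0.990). For ABCC5 they were FANCB (0.995) and DGKH (0.992), for ABCC10 FAAP24, WDR91 and TBC1D13 (0.960 to 0.967) and for ABCC4 ENAH, KDM1B and TMEM192 (0.945 to 0.953). The low-count ABCC2 reached at most 0.869, with EFCAB2.

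Uptake carriers move drugs and nucleosides in the opposite direction, and 26 of them were examined as a separate list. Only 13 passed the low-count filter in K562+L against K562, where 3 were higher and 2 lower, beside 18.2% and 19.0% of all genes. SLC29A1 (ENT1), the nucleoside transporter that takes up cytarabine, rose from 166 ± 14.9 to 231 ± 6.76 CPM (SD, n = 3; log2 fold change 0.48, adjusted p = 0.00599), and SLC29A2 (ENT2) fell from 50.9 ± 3.16 to 30.1 ± 3.20 CPM (SD, n = 3; log2 fold change -0.76, adjusted p = 0.00187).

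In K562/IM against K562, 5 uptake carriers were higher and 4 lower of 13 tested, beside 30.1% and 27.1% of all genes. SLCO2B1, an organic anion carrier, rose from 1.18 ± 0.526 to 3.64 ± 0.261 CPM (SD, n = 3; log2 fold change 1.62, adjusted p = 0.00270). SLC19A1, the reduced folate carrier that takes up methotrexate, fell from 109 ± 12.4 to 66.3 ± 2.98 CPM (SD, n = 3; log2 fold change -0.72, adjusted p = 5.4e-04).

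In the labelled libraries, set against K562/IM, 6 were higher and 5 lower of 13 tested, and 9 of these passed the fold threshold, beside 33.2%, 33.6% and 28.5% of all genes. SLC29A1 rose from 142 ± 3.54 to 355 ± 11.9 CPM (SD, n = 3; log2 fold change 1.34, adjusted p = 2.6e-06), and SLC22A4 (OCTN1), which carries ergothioneine, from 5.98 ± 0.283 to 26.7 ± 0.873 CPM (SD, n = 3; log2 fold change 2.18, adjusted p = 1.4e-06). SLCO2B1 fell to 0.314 ± 0.216 CPM (SD, n = 3; log2 fold change -3.50, adjusted p = 3.9e-04) and SLC19A1 to 26.8 ± 4.87 CPM (SD, n = 3; log2 fold change -1.29, adjusted p = 8.5e-05). Against K562, 8 carriers were higher and 4 lower of 13 in the labelled libraries, beside 28.2% and 27.8% of all genes. The median log2 fold change over the list was 0.98 against K562/IM and 0.76 against K562, where that of all genes was -0.0069 and 0.02.

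**Figure D4:**
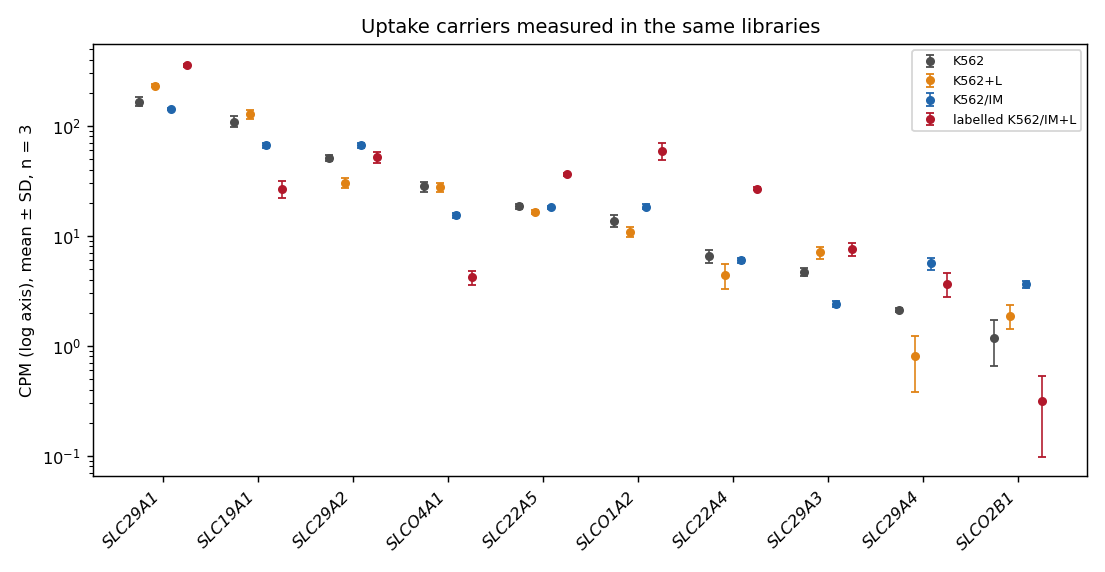
Mean level ± SD (n = 3) in CPM, on a log axis, of the 10 uptake carriers that were tested in the pairwise comparisons and had a mean over 1 CPM in K562, by group. SLC29A1 leads in every group and is highest in the labelled libraries, at 355 CPM, where SLC19A1 is lowest, at 26.8 CPM.

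The other ABC transporters, 39 genes with roles in lipid, peptide and haem transport or in translation, were read as a further list. In K562+L against K562, 3 were higher and 3 lower of 23 tested, beside 18.2% and 19.0% of all genes. ABCE1, which recycles ribosomes, had a log2 fold change of 0.63 (adjusted p = 0.00255) and ABCA7, a lipid transporter, one of -0.71 (adjusted p = 0.00152). In K562/IM against K562, 8 were higher and 11 lower of 24, beside 30.1% and 27.1% of all genes. Among them were ABCB11, the bile salt pump, at 5.55 ± 0.478 against 0.494 ± 0.177 CPM (SD, n = 3; log2 fold change 3.49, adjusted p = 4.4e-05) and the mitochondrial ABCB10 of haem synthesis at 85.5 ± 5.28 against 183 ± 19.8 CPM (SD, n = 3; log2 fold change -1.10, adjusted p = 7.1e-05).

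In the labelled libraries, set against K562/IM, 9 were higher and 9 lower of 26, beside 33.2% and 33.6% of all genes. ABCB10 rose to 468 ± 39.7 CPM (SD, n = 3; log2 fold change 2.47, adjusted p = 9.1e-07) and ABCB6, a porphyrin transporter, from 34.0 ± 1.63 to 188 ± 13.1 CPM (SD, n = 3; log2 fold change 2.49, adjusted p = 5.3e-07). All 12 erythroid markers were higher in the same comparison, and their part in these changes was not tested.

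Regulators of transporter genes, 38 genes, included JUN, a subunit of the AP-1 factor. The TGATTCA marked in the ABCB1 window matched only the loose spelling TGANTCA, in which N stands for any base. JUN stood at 29.5 ± 2.39 CPM in K562, 304 ± 19.5 in K562+L, 111 ± 14.5 in K562/IM and 167 ± 27.2 in the labelled libraries (SD, n = 3). Its log2 fold changes were 3.36 (adjusted p = 6.8e-06) for K562+L and 1.92 (adjusted p = 1.1e-05) for K562/IM, each against K562. In the labelled libraries, where ABCB1 fell, JUN was higher than in K562/IM (log2 fold change 0.61, adjusted p = 0.00572). Any link between JUN and ABCB1 was not tested. YBX1, a protein that binds the inverted CCAAT letters, fell in K562/IM from 1996 ± 180 to 1302 ± 27.0 CPM (SD, n = 3; log2 fold change -0.62, adjusted p = 3.4e-04). VDR, the vitamin D receptor, rose in K562/IM from 2.75 ± 0.329 to 7.47 ± 0.725 CPM and stood at 0.418 ± 0.164 CPM in the labelled libraries (SD, n = 3), with log2 fold changes of 1.44 (adjusted p = 1.6e-04) and -4.11 (adjusted p = 1.5e-05). Of the 34 regulators tested, 10 were higher and 5 lower in K562+L and 9 higher and 8 lower in K562/IM, each against K562, and 12 higher and 10 lower of 32 in the labelled libraries against K562/IM. The shares over all genes were 18.2% and 19.0%, 30.1% and 27.1%, and 33.2% and 33.6% in the same order.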

How the data were processed

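Poly(A) RNA of 12 libraries was sequenced by the authors, who deposited raw counts, 1 integer for each symbol in each library. The submitters' processing notes name FastQC, STAR, StringTie, DESeq2 and hg38, with no version or role. Libraries were grouped by the treatment and line in their labels. The 9 members and the gene lists were chosen with earlier results of these data known.

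With R 4.3.3, edgeR 4.0.16 and limma 3.58.1, the 6 libraries of each pairwise comparison were filtered (filterByExpr, minimum count 10), scaled by TMM and tested by edgeR's quasi-likelihood method. Benjamini-Hochberg adjustment covered all genes tested. The threshold for a call was an adjusted p of 0.05, and the fold threshold was an absolute log2 fold change over 1. The interaction was fitted over 12 libraries, and CPM used TMM over the same 12. Lengths came from GENCODE release 29, in which 19029 of the 19447 symbols matched. The edgeR fit was tested on simulated counts for K562+L against K562 and for the interaction, and not for the other comparisons. DESeq2 1.42.0 served as an alternative. The fixed rule named all 9 members, at most 3 called genes per list and direction in each comparison, by smallest p, and the 5 (ABCB1) or 3 genes with the highest r. The neighbours without a call, KIAA1324L, CD3E and MS4A1 were named outside it. So was the value of JUN in the labelled libraries against K562/IM. Some single genes within the rule are not reported here, and counts over lists include them. With 3 libraries against 3, an exact permutation test cannot give a p under 0.1, so single values were not tested that way.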

Additional observations from a re-analysis of the deposited data

Results flagged for a closer look

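For 7 of the 9 transporters the lycorine contrast in K562/IM differed from that in K562 by the interaction test over 12 libraries, in edgeR's quasi-likelihood fit. Over all 13995 genes 29.9% had a positive and 31.7% a negative difference. The differences on the log2 scale were -6.23 for ABCB1 (adjusted p = 3.1e-08), 5.65 for ABCC3 (adjusted p = 2.7e-08), 3.51 for ABCG2 (adjusted p = 3.0e-08) and 3.26 for ABCB4 (adjusted p = 4.2e-06). Smaller differences were -1.07 for ABCC1 (adjusted p = 6.7e-05), -0.96 for ABCC5 (adjusted p = 6.3e-05) and 0.83 for ABCC10 (adjusted p = 9.7e-05). Each rests on the libraries labelled K562/IM+L, which the study numbers in different ways. No group had 4 libraries, so outlying libraries were not tested for.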

How the results depend on the processing

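The 40 fold changes were read again in alternative fits, which gave 600 values, several from each fit. Of these values 564 kept their direction and their side of the threshold, 17 lost a call, 11 gained one and 8 changed sign. Values from the same fit share libraries and scaling, so they are not independent. No call of ABCB1, ABCB4, ABCC1, ABCC3 or ABCG2 with a fold over 2 was lost in any alternative, apart from ABCB1 in the labelled libraries against K562 without labelled replicate 1. Same-numbered libraries did not deviate together (correlations -0.569 to 0.408, with 4 of 18 over 0.1), so the numbers were not taken to pair the samples. With the replicate number as a block, 3126 genes were called in K562+L against K562 in place of 4821, and 3 transporters in place of 5 in the labelled libraries against K562. Asking for the fold threshold as well left 826 genes in K562+L against K562, 3 transporters and 2566 genes in K562/IM against K562, 4 transporters and 3917 genes in the labelled libraries against K562/IM, 2 transporters and 3162 genes in those against K562, and 4720 genes in the interaction. Leaving out 1 library gave 2871 (without K562 replicate 2) to 5823 genes in K562+L against K562 and 3 to 5 transporters in the labelled libraries against K562. Signs turned for changes near 0: ABCG2 in K562+L was -0.018 under upper-quartile scaling and -0.0091 to 0.074 with 1 library left out, and ABCC4 in the labelled libraries against K562/IM was -0.22 to 0.022 with 1 left out. Against K562, the labelled libraries had ABCC1 at 0.12 and ABCG2 at 0.11 under upper-quartile scaling, and ABCC1 at -0.11 to 0.059 with 1 left out. With the longest transcript in place of merged exons, the sum of the 9 levels in K562 was 53.1 CPM per kb in place of 36.8. The causes were not tested. Depth limits ABCC2 most, at 0 to 13 counts.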

Other observations

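Enzymes of glutathione metabolism and of drug conjugation and oxidation were read as a list, since glutathione conjugates are among the substrates of ABCC pumps. Lycorine in K562 gave 2 higher and 11 lower among the 21 tested, with a median log2 fold change of -0.57. Over all genes 18.2% were higher and 19.0% lower, with a median of -0.00012. GCLC and GCLM, the subunits of the enzyme that starts glutathione synthesis, were the ones that rose, with log2 fold changes of 0.42 (adjusted p = 0.0234) and 0.44 (adjusted p = 0.0235). GGT1, which breaks down glutathione outside the cell, fell from 15.8 ± 2.13 to 6.18 ± 1.08 CPM (SD, n = 3; adjusted p = 0.00110), and MGST2 fell from 35.4 ± 4.30 to 17.6 ± 1.89 CPM (SD, n = 3; adjusted p = 0.00119).

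In K562/IM against K562, 4 were higher and 9 lower of 21, beside 30.1% and 27.1% of all genes. GSTM3, a glutathione transferase, rose from 3.56 ± 0.509 to 16.0 ± 0.736 CPM (SD, n = 3; adjusted p = 1.0e-05), and the sulfotransferase gene SULT1A1 from 0.538 ± 0.514 to 8.23 ± 1.15 CPM (SD, n = 3; adjusted p = 7.1e-04). SULT1A1 has near-identical relatives, so its counts are uncertain. Among the 9 that were lower, GGT1 fell from 15.8 ± 2.13 to 4.44 ± 0.321 CPM (SD, n = 3, adjusted p = 2.5e-05). MGST1 fell from 116 ± 11.6 to 62.1 ± 4.31 CPM (SD, n = 3, adjusted p = 1.8e-04). In the labelled libraries, set against K562/IM, 10 were higher and 7 lower of 21, beside 33.2% and 33.6% of all genes. GSTZ1 rose from 8.17 ± 0.855 to 32.7 ± 4.34 CPM (SD, n = 3; adjusted p = 1.1e-05). NQO1 fell from 79.8 ± 2.01 to 39.5 ± 5.42 CPM (SD, n = 3; adjusted p = 1.1e-04).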
